A study of Mus musculus with 4 samples.

Results

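The transcripts of 4 adipokines, hormones and carrier proteins that adipose tissue secretes into blood, were followed across white adipose tissue of female C57BL/6 mice: leptin (Lep), adiponectin (Adipoq), resistin (Retn) and retinol binding protein 4 (Rbp4). Every probe that the platform annotation assigns to one of these symbols was taken, which gave 1 probe for each gene, 4 of 45281 probes and 4 of the 11384 genes that had a detected probe. All 4 probes were detected on all 4 arrays, so no member was lost to the filter on dim signals, and none has a second probe to check it. The groups were high fat F0, high fat F1, high fat F2 and normal chow, each of them 1 Illumina bead array. The high fat diet took 60% of its energy from fat. Per the labels, all mice were 9 months old and had eaten their diet for 9 months, and each high fat array held a mix of 4 samples while the chow array held a mix of 3. From the labels it is not clear if separate animals gave the samples in a mix, which fat depot was taken or how F1 and F2 were bred. No group was repeated, so a difference between 2 arrays cannot be set against replicates, and precision is limited by having 4 arrays.

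Leptin is made by fat cells in proportion to their lipid store and acts on the brain through its receptor to restrain feeding. Adiponectin, a product almost confined to adipocytes, circulates as multimers and raises insulin sensitivity through the receptors Adipor1 and Adipor2, and its blood level is known to be lower in obesity. Resistin is an adipocyte hormone in mice that opposes insulin action in liver, and in humans it comes mainly from macrophages. Rbp4 carries retinol in blood bound to transthyretin, is made chiefly by liver and second by fat, and is known to be raised in serum in insulin-resistant states.

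The 4 transcripts took different courses. Lep rose on the high fat diet and was 6.05-fold, 6.10-fold and 3.85-fold higher on the F0, F1 and F2 arrays than on the chow array. Retn stood near chow on F0 and was lower by 0.94 on F1 and by 1.81 on F2 on the log2 scale. Adipoq lay within 0.47 of chow on every high fat array, and Rbp4 was lower than chow by 0.25 to 0.78. Lep alone of the 4 genes exceeded chow by 2-fold or more on F0, F1 and F2 alike, as 4.07% of all genes did, and 0 of the 4 fell short of chow by 2-fold or more on all of them, as 4.38% did. Retn was at least 2-fold lower on F2, where 8.24% of all genes were. Between generations 0 of the 4 genes were 2-fold higher, beside 0.835% of all genes for F1 against F0, 3.11% for F2 against F1 and 4.6% for F2 against F0. Retn was at least 2-fold lower for F2 against F0 (2.53% of all genes), and 0 of the 4 were for F1 against F0 (0.0703%) or F2 against F1 (0.791%).

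**Figure D1:**
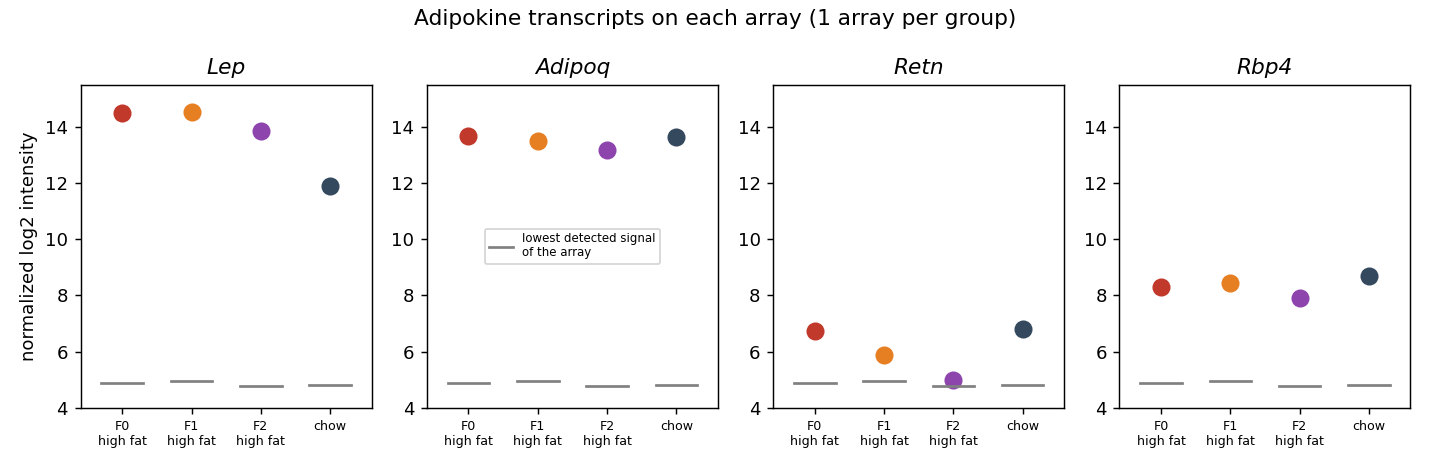
Normalized log2 intensity (vertical axis) of Lep, Adipoq, Retn and Rbp4 on the F0, F1, F2 and chow arrays, 1 point per array, with a grey bar at the lowest detected signal of each array. Lep lies between 13.86 and 14.52 on the high fat arrays against 11.91 on chow, and Retn on F2, at 4.99, lies just above that array's lowest detected signal of 4.77; levels in different panels come from different probes and are not comparable.

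Lep lies on chromosome 6 at 29060221 to 29073876, Adipoq on chromosome 16 at 23146536 to 23157968, Retn on chromosome 8 at 3655770 to 3659818 and Rbp4 on chromosome 19 at 38116620 to 38125321, in RefSeq's annotation of the build GRCm38.p6. The 250 bases before the RefSeq start of the 3 genes best known as adipocyte hormones are shown, because these proximal promoters belong to genes that share a cell type and did not move together here. Each reads 5′ to 3′ on its gene's strand, from RefSeq, and capitals mark matches to 5 motifs, searched on both strands. The motif bound by the general initiation machinery was searched as TATAAA. The motif of nuclear factor Y was searched as CCAAT, and the GC box of Sp1-type factors as GGGCGG. The single site of nuclear receptors was searched as AGGTCA, and the core of a C/EBP site as TTGCNNAA. The windows are chr6:29059971-29060220 for Lep, chr16:23146286-23146535 for Adipoq and chr8:3655520-3655769 for Retn, all on the plus strand.
Lep: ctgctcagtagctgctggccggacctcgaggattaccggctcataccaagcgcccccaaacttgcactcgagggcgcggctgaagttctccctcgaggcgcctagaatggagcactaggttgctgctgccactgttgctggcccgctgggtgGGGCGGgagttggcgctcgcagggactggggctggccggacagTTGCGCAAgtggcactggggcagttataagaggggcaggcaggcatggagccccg
Adipoq: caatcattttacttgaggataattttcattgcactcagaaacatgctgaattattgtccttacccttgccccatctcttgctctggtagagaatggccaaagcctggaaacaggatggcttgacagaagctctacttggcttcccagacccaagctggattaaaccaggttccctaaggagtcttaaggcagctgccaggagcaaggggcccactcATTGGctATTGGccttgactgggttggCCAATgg
Retn: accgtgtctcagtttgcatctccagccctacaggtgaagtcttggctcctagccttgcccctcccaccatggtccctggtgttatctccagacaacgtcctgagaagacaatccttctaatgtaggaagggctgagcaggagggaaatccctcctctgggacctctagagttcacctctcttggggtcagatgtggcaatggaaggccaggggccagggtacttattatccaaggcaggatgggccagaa
The Lep window holds 1 C/EBP core, TTGCGCAA, whose first base lies 55 bases before the start, and 1 GC box, at 98 bases. Among 32851 RefSeq windows of the same length, 9.56% hold the C/EBP core and 32.7% the GC box. The Adipoq window holds the nuclear factor Y motif at 3 positions, 34, 27 and 7 bases before the start, and 33.8% of all windows hold at least 1. The Retn window holds none of the 5 motifs, and the nuclear receptor site, in 14% of all windows, is in none of the windows shown. RefSeq gives 2 starts for Rbp4, on the minus strand. The window of the outer one holds 1 nuclear factor Y motif, and that of the inner one holds 1 initiation motif (12.4% of all windows), GC boxes at 2 positions and 1 C/EBP core. Matches to the 5 motifs did not overlap each other. The C/EBP core of Lep overlaps 2 matches to the E-box letters CANNTG, which 66.2% of windows hold and which are left in lower case. A match of letters describes the sequence, and no binding was measured.

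Leptin showed the clearest change. Its deposited intensity was 22569 on F0, 23150 on F1 and 15882 on F2, against 3973 on chow. Every high fat array lay above the chow array, and F2 was the lowest of the 3. After background correction and normalization the log2 signals were 14.51 on F0, 14.52 on F1 and 13.86 on F2, against 11.91 on chow. Treating F0, F1 and F2 as 3 samples of one diet, Lep rose by 2.38 ± 0.31 (log2, limma's SE, 3 of 3 arrays higher), with an adjusted p of 0.0234 from limma over all 11384 genes. In that fit 2.91% of all genes rose and 3.43% fell. The chow array has no spread of its own in it, so anything peculiar to that 1 pool counts as diet. The call was lost without the F1 array, at a difference of 2.27 and an adjusted p of 0.101 from limma, a fit in which 1 gene rose and 0 fell over all genes; over the 13 alternatives the adjusted p ran from 0.000118 to 0.101.

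Among all genes, 55 had a larger increase than Lep on F0, 95 on F1 and 391 on F2. How far probes of one gene differ in their log2 difference is the only technical gauge on these arrays, and among genes in Lep's signal range its SD was 0.262 for F0 against chow, 0.259 for F1 and 0.311 for F2. The differences of Lep were 9.91, 10.1 and 6.25 times as large. The order of its levels ran F1, F0, F2, chow. F1 and F0 were 0.01 apart, less than the gauge of 0.122 for that pair, and their order turned with median scaling on the probes detected on all 4 arrays (-0.02). F2 lay 0.65 below F0, or 3.02 times the gauge, a 1.57-fold lower signal, and 1104 genes had a lower difference. That gap shrank to -0.36 with cyclic loess in place of quantile normalization. The slope of Lep over the generations was -0.33 ± 0.10 per generation (limma, adjusted p = 0.0997). The probe's highest reading, 23150, lies below the highest reading of that array, 29027.

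**Figure D2:**
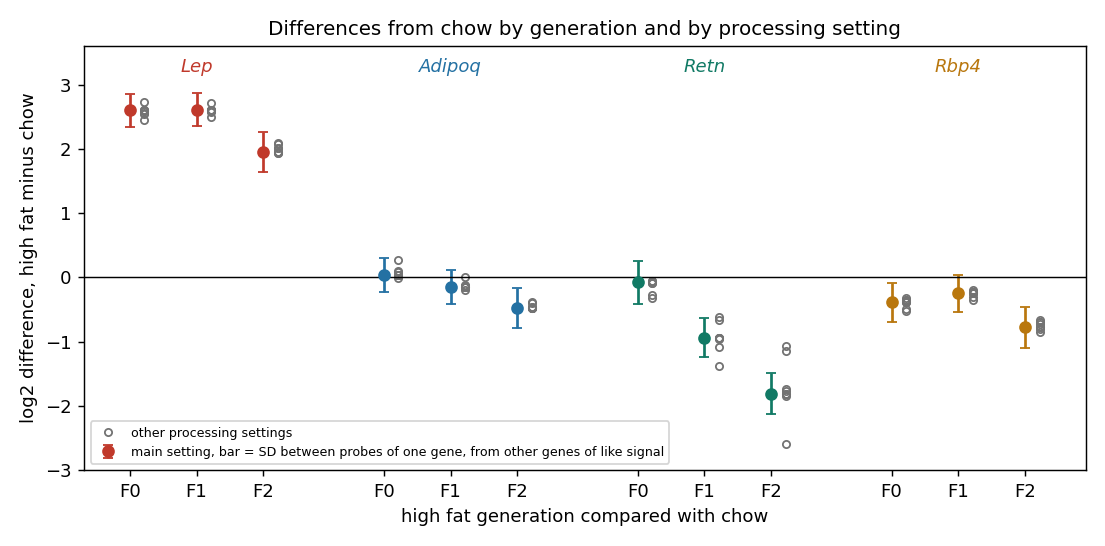
Log2 difference from chow (vertical axis) of each adipokine on the F0, F1 and F2 arrays, with filled points for the main setting, bars of 1 SD between probes of the same gene (taken from other genes of like signal) and open points for 9 other processing settings. Lep keeps to between 1.93 and 2.73 in all of them, while Retn on F2 spreads from -2.59 to -1.06.

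Adiponectin differed little from chow on F0. Its deposited intensity was 13169 on F0, 11398 on F1 and 9153 on F2, against 12643 on chow, so F0 lay slightly above chow and F1 and F2 below it. The log2 signals were 13.68, 13.49 and 13.17 on F0, F1 and F2, against 13.64 on chow. The differences from chow were 0.04, -0.15 and -0.47, or 0.134, 0.582 and 1.52 times the gauge for genes of like signal. Over the 3 high fat arrays the difference was -0.20 ± 0.24 (limma, adjusted p = 0.651), lower in 2 of 3 arrays.

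In order of level, F0, chow and F1 were neighbours closer than 1 gauge SD, and F2 lay 0.32 below F1, or 1.69 times the gauge for that pair. The sign turned for F0 with cyclic loess (-0.01) and for F1 with median scaling on the probes detected on all 4 arrays (0.01). Its slope was -0.25 ± 0.07 per generation (limma, adjusted p = 0.0697). That slope passed the threshold without background correction (adjusted p = 0.0384 from limma) and when only probes detected on all 4 arrays were tested (0.0394), in a range of 0.0384 to 0.201 over 10 alternatives.

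Resistin was the member that fell over the generations. The deposited intensity of its probe was 142 on F0, 97.3 on F1 and 72.9 on F2, against 159 on chow. F0 lay close to chow, and F1 and F2 lay stepwise below both. Its detection p-value was 0 on F0, F1 and chow and 0.00107 on F2. Log2 signals were 6.72 on F0, 5.87 on F1 and 4.99 on F2, against 6.80 on chow, and the F2 signal lay 0.23 above the lowest detected signal of its array. The probe is dim throughout, with the F0 and chow signals 1.83 and 1.98 above the same limit on their arrays.

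Retn fell over the generations by 0.86 ± 0.13 per generation (log2, limma's SE, adjusted p = 0.0312, 1 residual degree of freedom), in a fit where 1.86% of all genes fell and 2.22% rose. The call did not hold in 3 alternatives: the adjusted p from limma was 0.0582 with median scaling, 0.0663 with cyclic loess and 0.0693 without the mean trend of the variance, in a range of 0.00659 to 0.0693 over 10 alternatives whose slopes ran from -1.13 to -0.50. Between neighbouring generations the difference was -0.86 for F1 against F0, 4.22 times the gauge of 0.203, and -0.87 for F2 against F1, 3.65 times the gauge of 0.238. F2 stood 3.31-fold below F0, and 13 of 11384 genes had a lower difference; for F1 against F0 there were 20. F0 and chow differed by 0.08, less than the gauge of 0.338. Retn and Adipoq ran in the order F0, F1, F2 from high to low, as 27.2% of all genes did.

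Against chow, Retn was 1.91-fold lower on F1 and passed 2-fold on F2 alone. Over the 3 high fat arrays together the difference was -0.94 ± 0.67 (limma, adjusted p = 0.445), with 3 of 3 arrays lower. The size of the difference depended on the background step. In the deposited intensities F2 had 0.457 times the signal of chow, and in the authors' background-subtracted value table, where Retn reads 82.3 on F0, 39.6 on F1 and 17.1 on F2 against 103 on chow, it had 0.166 times. The log2 difference between F2 and chow was -1.06 with no background correction and -2.59 with the authors' table.

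Rbp4 was lower than chow on all 3 high fat arrays, by amounts that did not pass the test. Its deposited intensity was 347 on F0, 384 on F1 and 289 on F2, against 475 on chow, with F2 the lowest array and F1 the nearest to chow. Log2 signals were 8.32 on F0, 8.45 on F1 and 7.93 on F2, against 8.70 on chow. Of all genes, 38.6% lay below chow on all 3 high fat arrays, so the shared direction is common. The differences from chow were -0.39, -0.25 and -0.78, or 1.28, 0.852 and 2.46 times the gauge for genes of like signal, and F2 was 1.71-fold lower.

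Taking the 3 high fat arrays together, Rbp4 differed from chow by -0.47 ± 0.26 (limma, adjusted p = 0.346, 3 of 3 arrays lower). In order of level, chow and F1, and F1 and F0, were less than 1 gauge SD apart, and F2 lay 0.39 below F0, or 1.73 times the gauge. The slope over generations was -0.19 ± 0.12 (limma, adjusted p = 0.345). Across the 9 other settings its F2 difference from chow stayed between -0.85 and -0.67. The settings that change only the probe filter or probe choice could not move it, as Rbp4 has 1 probe.

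**Figure D3:**
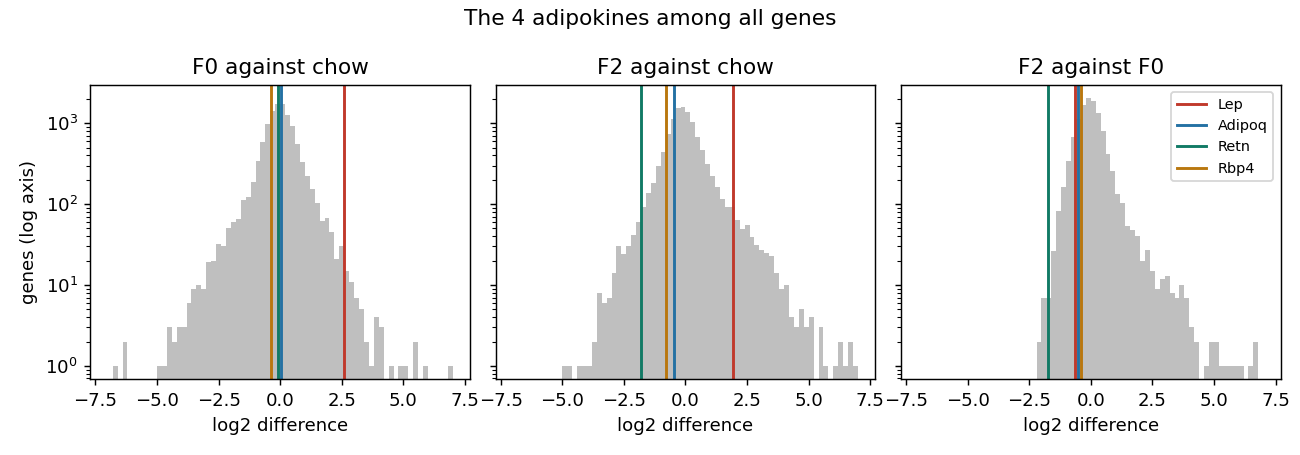
Numbers of genes (log axis) by log2 difference for F0 against chow, F2 against chow and F2 against F0, with a vertical line for each adipokine. Lep stands in the upper tail of the first 2 panels, and Retn in the lower tail of the panel of F2 against F0, where 13 genes lie below it.

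White adipose identity was checked on 18 measured white adipocyte markers, none of them one of the 4 adipokines, and all 18 were detected on all 4 arrays. Lpl, the lipoprotein lipase, read 14.63, 14.68 and 14.25 on F0, F1 and F2, against 14.57 on chow (log2), and the lipid droplet protein gene Plin4 read 14.26, 13.92 and 13.26, against 13.74. The markers had median differences from chow of 0.23 on F0, -0.10 on F1 and -0.86 on F2, beside -0.01, -0.02 and -0.09 over all genes. On F2 all 18 lay below F0 and 11 of them at least 2-fold, where 2.53% of all genes did, and 12 of 18 fell over the generations by limma, beside 1.86% of all genes. Of the 18, 0 fell in that fit without the mean trend or with cyclic loess, and 2 with median scaling. In a bulk tissue, fewer adipocytes and less RNA per adipocyte cannot be told apart.

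Set beside these markers, Lep had a larger difference from chow than all 18 on each high fat array. For F2 against F0, however, the difference of Lep, -0.65, was above 16 of the 18 marker differences, and those of Adipoq (-0.51) and Rbp4 (-0.39) were each above 17. Retn, at -1.73, was below all 18, and it was 0.72 below their median of -1.01. On F2 against chow, Adipoq lay 0.39 above the marker median, Rbp4 0.08 above and Retn 0.95 below it.

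**Figure D4:**
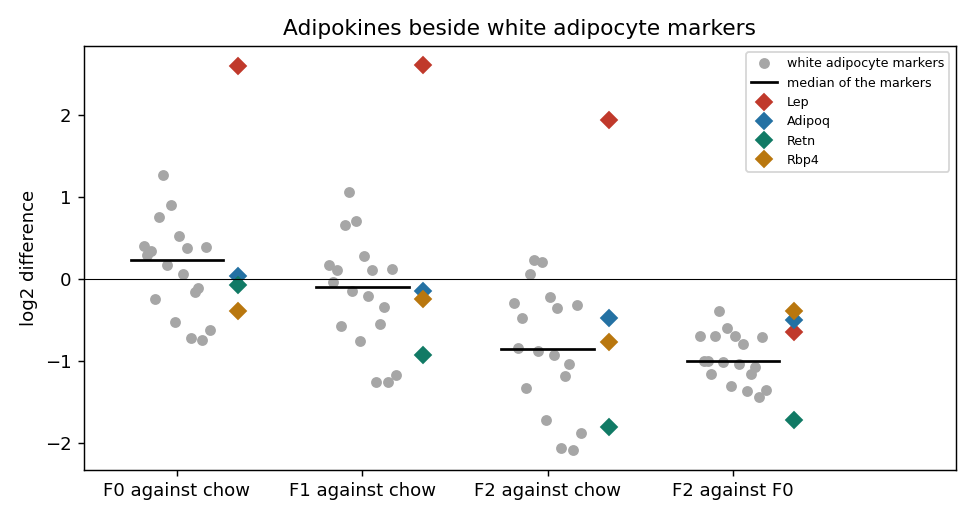
Log2 differences (vertical axis) of 18 white adipocyte markers (grey points, black bar at the median) and of the 4 adipokines (diamonds) for F0, F1 and F2 against chow and for F2 against F0. Lep is above all markers in the 3 comparisons with chow, and Retn is below all of them in F2 against F0.

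Transcripts of other cell types also differed between the arrays. Over all genes, 6.7%, 7.38% and 9.35% exceeded chow 2-fold or more on F0, F1 and F2, and 6.64%, 6.31% and 8.24% were lower by as much. Macrophage markers exceeded chow at least 2-fold in 10 of 14 on F0, 12 on F1 and 13 on F2, with summed normalized intensities of 22301, 31440 and 37621, against 6971 on chow. B cell markers were at least 2-fold higher on F2 in 6 of 6 genes and T cell markers in 6 of 7. Of 8 B cell markers on the array, 3, 3, 6 and 4 were detected on F0, F1, F2 and chow. Of 9 T cell markers, 6, 6, 7 and 5 were. Some of both lists were detected on F2 alone and so entered these counts through F2. Summed intensities for B cells were 435, 425 and 7571 on F0, F1 and F2, against 349 on chow. For T cells they were 499, 465 and 3156, against 361. Mesothelial markers were at least 2-fold lower in 7 of 7 on every high fat array, and smooth muscle markers in 6, 8 and 8 of 8. Of the 7 mesothelial markers, 4, 4, 5 and 7 were detected on F0, F1, F2 and chow. Some of them were detected on chow alone and so entered these counts through chow, where they are high. For the 8 smooth muscle markers the detected numbers were 8, 7, 7 and 8. Skeletal muscle markers went both ways, with 5 of 10 at least 2-fold lower on every high fat array and 2, 1 and 0 at least 2-fold higher on F0, F1 and F2. Of 11 on the array, 5, 5, 5 and 10 were detected on F0, F1, F2 and chow, and some entered these counts through chow alone. The brightest skeletal muscle marker, Acta1, was higher by 1.41, 0.76 and 0.68. Summed intensities of the 10 were 4411, 3368 and 2696 on F0, F1 and F2, against 3422 on chow. Of 4 brown adipocyte markers, 2, 2 and 3 were at least 2-fold lower on F0, F1 and F2, with summed intensities of 2131, 1850 and 1522, against 3814 on chow. The part of these cell types in the adipokine differences was not tested.

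Hepatocyte markers bear on Rbp4, which liver makes. They were at least 2-fold higher than chow in 1 of 16 genes on F0, 14 on F1 and 15 on F2, beside 6.7%, 7.38% and 9.35% of all genes. Of 19 on the array, 8, 15, 16 and 7 were detected on F0, F1, F2 and chow. Some of the 16 thus entered these counts only through F1 or F2, where they are high. The summed intensity of all 16 was 5591 on F0, 9938 on F1 and 16661 on F2, against 16006 on chow. Cyp2e1, which adipose tissue also expresses, was lower on all 3 high fat arrays, and it was left out with its values known. Without it the summed intensity of the other 15 was 711 on F0, 6426 on F1 and 14472 on F2, against 812 on chow. Rbp4 was lower than chow on F1 and F2, by 0.25 and 0.78. Transthyretin (Ttr), the partner of Rbp4 in blood and itself a hepatocyte gene, was not detected on F0 and read 10.13 on F1 and 11.17 on F2, against 4.92 on chow. The part of hepatocyte RNA in the Rbp4 signal was not tested.

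Of the adiponectin pathway, 4 of 4 receptor and binding genes and 5 of 7 assembly genes were measured, and 0 of these 9 rose or fell by limma in either fit. At an unadjusted p under 0.05 limma gave 0 of the 9 against chow, beside 24.8% of all genes, and 2 of the 4 and 2 of the 5 over the generations, beside 26.4% of all genes. Adipor1, the receptor abundant in muscle, differed from chow by -0.01, -0.02 and -0.02 on F0, F1 and F2. Adipor2, the receptor abundant in liver, differed by -0.17, -0.54 and -0.73 on F0, F1 and F2. Cdh13, which binds multimeric adiponectin as T-cadherin, differed by -0.23, -0.39 and -1.16, and passed 2-fold on F2 alone. The median of the 4 receptor and binding genes was -0.37 on F2, against -0.09 over all genes. Appl1, an adaptor of the adiponectin receptors, differed by 0.30, 0.19 and 0.16, and Gstk1, a chaperone for adiponectin multimers also called DsbA-L, by 0.04, -0.02 and -0.51.

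Of 7 genes of leptin reception and signalling, Lepr, the receptor itself, was detected on no array and 6 were measured. Of the 6, 0 rose or fell by limma in either fit. At an unadjusted p under 0.05 limma gave 1 against chow, beside 24.8% of all genes, and 2 over the generations, beside 26.4%. Leprot, a gene that shares its start with Lepr, differed from chow by 0.33, 0.44 and 0.55 on F0, F1 and F2. Socs3, a feedback inhibitor of leptin signalling, differed by -0.80, -0.76 and 0.21, and Ptpn1, the phosphatase that dampens leptin and insulin receptor signals, by 0.16, 0.39 and 1.03. The median of the 6 was -0.16, -0.30 and 0.16.

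Of 6 genes of the resistin-like family and the receptors proposed for resistin, 4 were measured. Retnla, resistin-like alpha, which alternatively activated macrophages and adipose tissue express, read 11.11, 10.66 and 9.66 on F0, F1 and F2, against 11.37 on chow. It fell over the generations by 0.73 per generation (limma, adjusted p = 0.0242), a call lost with median scaling, with cyclic loess and without the mean trend (limma's adjusted p over 10 alternatives 0.00542 to 0.103). Cap1, a proposed receptor of human resistin, differed from chow by -1.28, -0.97 and -0.98, which gave a mean difference of -1.08 ± 0.20 (limma, adjusted p = 0.0510). Tlr4, another proposed receptor, differed by at most 0.07. Retnlg, not detected on F1, read 5.73 on F0 and 5.41 on F2, against 4.89 on chow.

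Around Rbp4, 2 of 8 genes of retinol binding and transport and 8 of 13 of retinoid metabolism were measured. Stra6, the cell surface receptor of Rbp4, was detected on no array. Rbp7, a cellular retinol binding protein of adipose tissue, differed from chow by -0.22, -0.42 and -1.21 on F0, F1 and F2 and fell over the generations by 0.50 (limma, adjusted p = 0.0487). The Rbp7 call was lost in the same 3 alternatives, in a range of 0.0162 to 0.128. Ttr, undetected on F0, was at least 37.7-fold higher on F1 and at least 77.8-fold higher on F2 than on F0. Of the 8 retinoid genes 0 rose or fell in either limma fit, with 2 and 3 at an unadjusted p under 0.05 against chow and over the generations, where 24.8% and 26.4% of all genes were. Dhrs3, a retinaldehyde reductase not detected on chow, was at least 2.03-fold, 1.69-fold and 1.54-fold higher on F0, F1 and F2. Aldh1a2, a retinoic acid synthase detected on chow alone, was at least 1.57-fold, 1.52-fold and 1.71-fold lower.

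Other secreted products of fat went both ways. Of 20 listed, 14 were measured. On F0, F1 and F2, 3, 3 and 2 of them exceeded chow at least 2-fold, beside 6.7%, 7.38% and 9.35% of all genes. On the same arrays 3, 4 and 3 were lower by as much, beside 6.64%, 6.31% and 8.24%. Bmp3, a secreted member of the TGF-beta family, read 10.19, 9.65 and 8.78 on F0, F1 and F2, against 7.67 on chow. Nrg4, a growth factor of brown fat that acts on liver, read 8.88, 8.57 and 7.74, against 10.44, and Agt, angiotensinogen, read 7.30, 7.08 and 6.06, against 8.57. Bmp3 was thus above chow and Nrg4 and Agt below it on all 3 high fat arrays, each at least 2-fold. Of the brown adipocyte markers, Cidea differed by -2.62, -3.16 and -3.57 on F0, F1 and F2, and Ucp1 by -2.49 and -2.97 on F0 and F1 and, undetected on F2, was at least 12.1-fold lower there. Their part in the Nrg4 difference was not tested.

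In the fit against chow 1 of the 14 fell and 0 rose, beside 3.43% and 2.91% of all genes. The gene was Dpp4, a peptidase shed by fat cells, which fell by 1.12 ± 0.19 (limma, adjusted p = 0.0416). Leaving out F0, F1 or F2 gave Dpp4 differences of -1.06, -1.09 and -1.20. Its call was lost without the F1 array, in a fit that called hardly any gene at all. The Dpp4 call was also lost with cyclic loess, with both median scalings and without the mean trend (limma's adjusted p over 13 alternatives 0.00162 to 0.2497). Over the generations 3 of the 14 fell, beside 1.86% of all genes: Bmp3 by 0.70 per generation, Nrg4 by 0.57 and Vegfa, an angiogenic factor, by 0.71 (limma, adjusted p = 0.0224, 0.0464 and 0.0256). Of the 14, 0 fell without the mean trend or with cyclic loess and 1, Bmp3, with median scaling. Over 10 alternatives limma's adjusted p ran from 0.00538 to 0.100 for Bmp3, from 0.0164 to 0.110 for Nrg4 and from 0.00659 to 0.100 for Vegfa. Dpp4, which is also in the list of stromal progenitor markers, and Vegfa were named after their values were seen. Lcn2, lipocalin 2, was higher than chow by 0.63 on F0 and 1.21 on F2, with the highest level, 8.97, on F1.

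The C1q/TNF family, paralogs of adiponectin, had 8 of 10 genes measured and 0 that rose or fell in either limma fit, with 4 and 3 at an unadjusted p under 0.05 (24.8% and 26.4% of all genes). Of the 8, 6 were detected on each high fat array and 8 on chow, so some entered these counts through chow alone. C1qtnf3, a secreted paralog, was lower than chow by 2.20 on F0, 2.66 on F1 and 1.01 on F2, and C1qtnf5 was higher by 0.91, 1.37 and 0.45. Of 10 transcription factors that act on adipokine genes 0 rose or fell in either limma fit, with 4 and 3 at an unadjusted p under 0.05, beside the same shares of all genes. Pparg, the adipogenic nuclear receptor, differed from chow by -0.09, -0.09 and -0.56, Cebpa, which binds C/EBP sites, by 0.41, 0.21 and -0.20, and Srebf1, a lipogenic factor, by -1.10, -1.16 and -1.69. Pparg and Cebpa were named after their values were seen. The median of the 10 was -0.40 on F0, -0.28 on F1 and -0.60 on F2, beside -0.01, -0.02 and -0.09 over all genes. Of the 10, 8 were detected on each high fat array and 10 on chow. With undetected signals set no lower than the array's lowest detected signal, the medians were -0.35, -0.23 and -0.54.

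**Figure D5:**
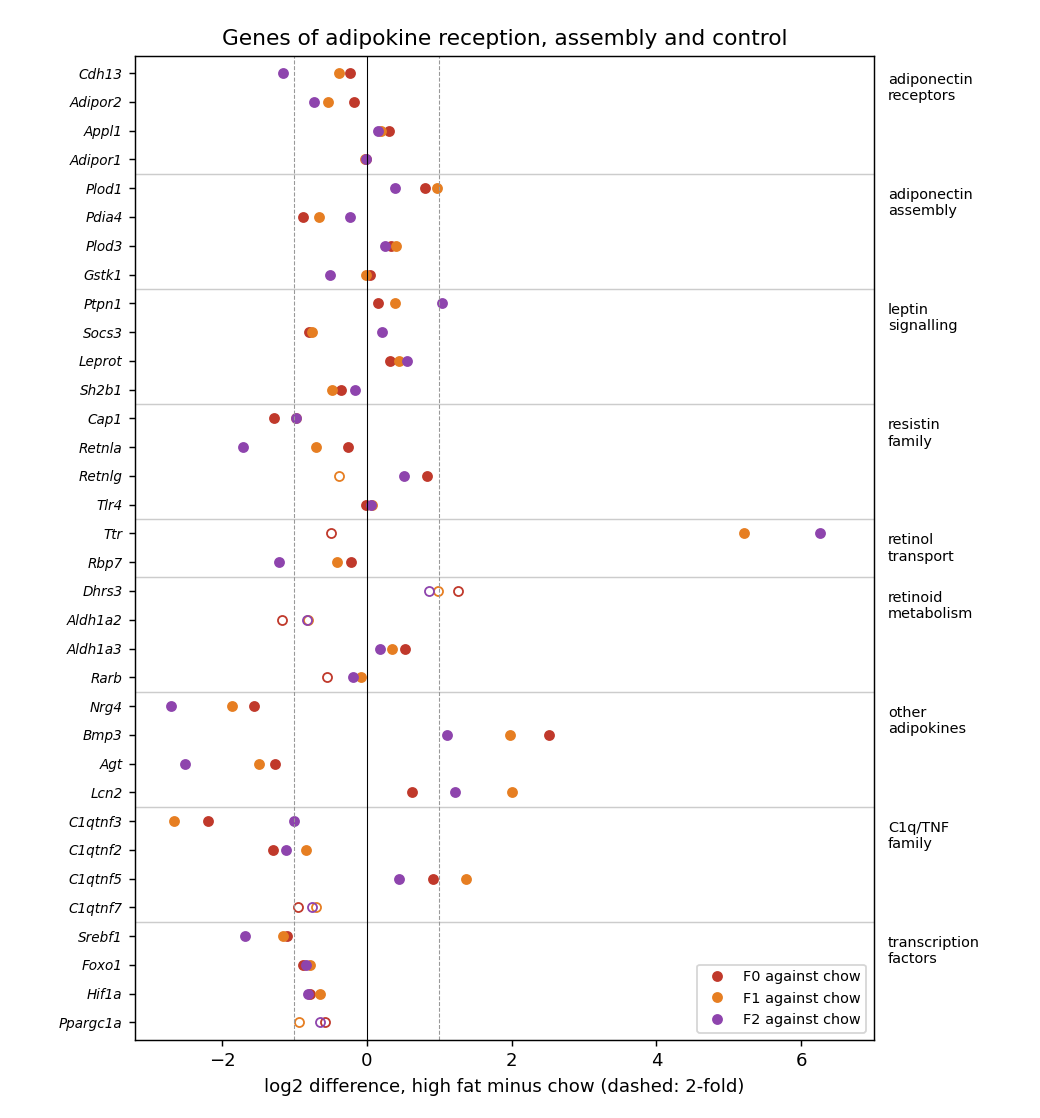
Log2 differences from chow (horizontal axis) on the F0, F1 and F2 arrays for genes of adipokine reception, assembly and control, by group, with open points where either array of a pair did not detect the gene and dashed lines at 2-fold. Ttr lies beyond 5 on F1 and F2, Retnla, Rbp7 and Cdh13 each have their own lowest value on F2, and Bmp3 lies above 1 on all 3 arrays.

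The genes whose 3 differences from chow were closest to those of each adipokine were found by Euclidean distance among 9004 genes detected on all arrays. For Lep the nearest 5 were Ugt3a2 (distance 0.173), Trp53inp2, Gtse1, Adap2 and Cdkn1a (0.354), and 9 genes lay within 0.5. For Retn they were Sh3d21 (0.119), Amy1 (0.146), Retnla (0.305), Net1 and Amy2a5 (0.389), and 10 genes lay within 0.5, so both patterns were sparse. Amy1 and Amy2a5 belong to a family of near-identical amylase genes, so their separate values are uncertain. Adipoq and Rbp4 lay in dense regions, with 2367 and 1430 genes within 0.5, led by Lrrc8d (0.0141) for Adipoq and by Pgghg (0.0505) for Rbp4. Next for Adipoq came Pcdh17, Mrpl2, Psmg1 and Uqcc1, and next for Rbp4 Elmo3, Pls3, Zfp275 and Thsd1. The distance between Adipoq and Rbp4 was 0.530, and that between Lep and Retn 5.81. With 3 differences that share the chow array, these distances describe the arrays and test nothing.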

How the data were processed

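Total RNA of white adipose tissue was hybridised to 4 Illumina bead arrays, per the labels. The deposited non-normalized table gives an intensity and a detection p-value per probe; per the submitters' processing notes GenomeStudio 2010.2 was used, and every array of that table has the same mean intensity, 274.4. The authors' value table holds background-subtracted intensity values with 25.8% to 27.8% of them below 0, and was used as an alternative.

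Intensities were background-corrected with limma 3.58.1 in R 4.3.3 (normexp, with the negative controls' mean and spread estimated through the detection p-values, offset 16), quantile-normalized and put on the log2 scale. A probe was detected at a p-value under 0.01. Of 45281 probes the annotation gives 34885 one symbol, 18 several and 10378 none; the brightest probe with 1 symbol and a detection stood for each of 11384 genes. Detected probes made up 37.8% to 40.9% of each array. Array pairs were described by size, a gene counting from a 2-fold difference with the brighter array detected. For folds given as "at least" where a gene was undetected, that side was set no lower than the array's lowest detected signal. The counts and medians used the signals without this bound. Some counted genes therefore have a bound under 2-fold, as Apoh on F2 against chow did (1.52). limma (lmFit and eBayes with trend, two-sided, Benjamini-Hochberg over all genes, threshold 0.05) compared 3 high fat arrays with 1 chow array (residual df 2), and a second fit gave the slope across F0, F1 and F2 (residual df 1). The probe gauge is the SD between probes of 3069 genes, in 4 equal bins of signal. The code was tested on simulated data.

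Besides the members and the 5 nearest genes to each, pathway genes at least 2-fold apart from chow on all 3 high fat arrays, or among the 4 with the largest mean difference in their list, could be named, and of marker lists the 4 brightest. The members and lists were chosen with earlier results of these data known. Alternatives covered background, normalization, filters, probe choice, fold, variance model, the authors' table and each high fat array left out. p-values measure only the spread between these arrays, which may be technical. In the slope fit that spread is only how far F0, F1 and F2 depart from a straight line, moderated across genes by eBayes.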

Additional observations from a re-analysis of the deposited data

Results flagged for a closer look

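Retn was marked because its slope over F0, F1 and F2, -0.86 per generation, passed the threshold (limma, adjusted p = 0.0312). With 1 array a generation, the error of that slope is only the departure from a straight line, moderated across genes. Spread within a generation was not measured, and the call was lost in 3 of 10 alternatives. Adipoq was marked because it lay above chow on F0, by 0.035, and below chow on F2, by -0.47 (log2). With 1 array a generation, that difference in sign was not tested, and the F0 value is 0.134 times the SD between probes of one gene.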

How the results depend on the processing

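An alternative value for an array pair counted as unchanged when it lay within 1 gauge SD of the main value. A limma result counted as unchanged when it stayed on its side of the adjusted p threshold. By these rules Rbp4 was unchanged in 77 of 77 alternative values, Adipoq in 75, Lep in 72 and Retn in 61. Some of these were fixed in advance, because each member has 1 probe detected on all 4 arrays. Its pair values could not change without the detection filter, with probes detected on all 4 arrays or with the mean over detected probes. Those pair values count as unchanged by construction and say nothing about robustness. Rbp4 also kept its direction in all 77, and no called result reversed. Pair values were not counted by the 2-fold limit. Retn for F1 against F0 passed it with the authors' table, at -1.05, and still counted as unchanged. Leaving out each high fat array in turn gave Lep a diet difference of 2.27 to 2.60, with the call lost without F1 (adjusted p 0.101 from limma); the genes higher in that fit numbered 1 to 1570 and those lower 0 to 1608, against 331 and 390. The Retn slope was -0.86 without the mean trend, -0.78 with median scaling and -0.83 with cyclic loess, each no longer past the adjusted p threshold. The Lep slope of -0.33 and the Adipoq slope of -0.25 passed it without background correction (-0.33 and -0.25) and with probes detected on all 4 arrays. Retn differences without background correction were -0.62 (F1 against chow), -1.06 (F2 against chow), -0.56 (F1 against F0), -0.45 (F2 against F1) and -1.01 (F2 against F0); with offset 50 the last 4 were -1.14, -0.60, -0.49 and -1.08; with the authors' table F1 and F2 against chow were -1.38 and -2.59, F2 against F1 -1.21 and F2 against F0 -2.26. Cyclic loess gave Lep -0.42 for F2 against F1 and -0.36 for F2 against F0. Genes rising and falling over the generations, 253 and 212 in the main setting, numbered 22 and 0 without the mean trend, 660 and 597 without background correction, 478 and 426 with offset 50, 716 and 512 with the authors' table, 58 and 16 with median scaling, 23 and 4 with cyclic loess, 496 and 410 without the detection filter and 533 and 676 with probes detected on all 4 arrays, which also left 250 genes lower on the diet. The causes were not tested. Genes at least 2-fold lower than chow numbered 428 without background correction to 1330 with the authors' table on F0 and 542 to 1365 on F2, and those lower by 1.5-fold 1739 and 2203. Median scaling put the median of all genes at -0.11 for F0 and F2 against chow. Median scaling on probes detected on all 4 arrays was added after seeing the data. Signal near background limits Retn. No paired analysis was possible because each group has 1 array.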
